A study of Mus musculus with 3 samples.

Results

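Peaks of the retinoic acid receptor beta (RARβ) and of histone H3 trimethylated at lysine 4 (H3K4me3) were examined at a pair of neuronal loci, the region of Mef2c with the neighbouring microRNA gene Mir9-2 and the region of Baiap2. The members were all peaks of both lists with at least 1 bp in a 255 kb window of chromosome 13 (Mef2c with Mir9-2) or a 73.0 kb window of chromosome 11 (Baiap2), in build mm9. The outermost members span chr13:83656211-83889867 and chr11:119796393-119853466. They numbered 27 of 44046 peaks in all, namely 10 of 8075 RARβ peaks and 17 of 35971 H3K4me3 peaks. The members were chosen by H3K4me3 peak width and by the RARβ peaks seen in those wide peaks, so widths, tag numbers and peak numbers below are descriptions without a test. Both lists come from chromatin immunoprecipitation followed by sequencing of caudate putamen, which forms the dorsal striatum. The animals were male, wild type and of a mixed background, C57BL/6J with 129SvEms/j. Each antibody had 1 library, the ages and the number of animals are not given in the sources used here, and the wild type animals were littermates of RARβ-null mice from crosses of heterozygotes. The library made with an antibody against GFP was not analysed here. With 1 library per antibody there is no replicate error, and all intervals are 95% intervals of counting error only. The lists name no genes, so the labelled tissue was not checked against marker genes. Overlap of peaks from separate tissue libraries does not show that RARβ and the mark lie in the same cells.

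RARβ is a nuclear receptor that, with a retinoid X receptor partner, binds DNA at repeats of a short hexamer and switches transcription in response to retinoic acid. In the striatum it is found in medium spiny neurons, the projection neurons of this region. H3K4me3 is laid down at active promoters, and in some genes, often those tied to a cell's identity, it spreads over many kilobases as a broad domain. Mef2c encodes a MADS-box transcription factor of neurons that shapes synapse number, and Baiap2 encodes IRSp53, a scaffold protein of the postsynapse that links membrane bending to actin. Mir9-2 is a gene for miR-9, a microRNA abundant in neural progenitors and neurons, and lies within the long noncoding RNA gene C130071C03Rik in the RefSeq annotation. In that annotation the nearest coding genes beside Mir9-2 are Mef2c on one side and Tmem161b on the other. Baiap2 lies between Chmp6 and Aatk and overlaps the noncoding gene Gm11767.

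The product of Mir9-2 is shown because the same mature strands can come from other genes. The mature strands, from RefSeq (GRCm38.p6), are printed with the seed, bases 2 to 8, in capitals.
miR-9-5p: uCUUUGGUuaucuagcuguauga
miR-9-3p: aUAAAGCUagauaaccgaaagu
Each of the 3 hairpins Mir9-1, Mir9-2 and Mir9-3 held both strands letter for letter, on chromosomes 3, 13 and 7 of GRCm38.p6. In the hairpins below, the mature strands are in capitals, and the lower-case letters between them are the loop.
Mir9-1: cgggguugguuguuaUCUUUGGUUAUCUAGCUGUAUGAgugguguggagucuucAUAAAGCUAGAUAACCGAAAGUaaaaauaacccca
Mir9-2: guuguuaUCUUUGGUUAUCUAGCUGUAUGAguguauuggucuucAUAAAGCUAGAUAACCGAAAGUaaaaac
Mir9-3: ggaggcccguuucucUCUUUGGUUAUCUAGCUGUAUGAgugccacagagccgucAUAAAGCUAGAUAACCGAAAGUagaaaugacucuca
Mir9-2 had the shortest hairpin, of 72 bases against 89 for Mir9-1 and 90 for Mir9-3, and 14 bases between the arms against 16 in each of the others. No other mature mouse microRNA of the table shared the seed of either strand.

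The promoters of the 3 genes are shown because H3K4me3 gathers at promoters rich in CG. For each gene, the RefSeq start with the most CG dinucleotides was taken. The 250 bases before the start are printed on the forward strand, with every CG in capitals. Their GRCm38.p6 coordinates cannot be set beside the mm9 coordinates of the peaks, so which peak lies over which start is not stated.
Mef2c, chr13:83523406-83523655: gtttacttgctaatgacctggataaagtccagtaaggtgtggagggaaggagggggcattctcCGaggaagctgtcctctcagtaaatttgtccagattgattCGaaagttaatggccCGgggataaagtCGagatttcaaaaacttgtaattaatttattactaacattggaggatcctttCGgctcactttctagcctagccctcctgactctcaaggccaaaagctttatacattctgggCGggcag
C130071C03Rik, chr13:83721131-83721380: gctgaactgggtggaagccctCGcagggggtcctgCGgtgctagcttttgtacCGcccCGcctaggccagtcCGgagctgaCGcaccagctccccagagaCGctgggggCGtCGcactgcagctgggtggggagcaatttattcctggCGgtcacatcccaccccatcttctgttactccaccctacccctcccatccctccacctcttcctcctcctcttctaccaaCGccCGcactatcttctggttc
Baiap2, chr11:119942842-119943091: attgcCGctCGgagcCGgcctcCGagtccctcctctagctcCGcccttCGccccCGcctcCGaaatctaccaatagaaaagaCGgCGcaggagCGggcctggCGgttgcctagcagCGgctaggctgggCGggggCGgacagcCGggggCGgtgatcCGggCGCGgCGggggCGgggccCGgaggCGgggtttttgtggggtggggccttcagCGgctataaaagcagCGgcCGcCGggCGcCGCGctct
The Baiap2 sequence held 31 CG at a G and C content of 72.8%, the C130071C03Rik sequence 12 at 62.8%, and the Mef2c sequence 6 at 44.8%. Over the full 300 bases around the start, the Baiap2 promoter had 34 CG, more than 92.3% of the 32851 promoters of the table, whose median was 7. The 3 annotated starts of Mef2c had 1, 10 and 4, and those of C130071C03Rik had 12, 4 and 7. The receptor hexamer AGGTCA was searched on both strands of these 7 promoters. It was found at the second Mef2c start, once, as TGACCT at bases 14 to 19 of the printed sequence, and at the third Mef2c start, at 2 places. The promoters of C130071C03Rik and Baiap2 did not hold these letters. Among related genes, the promoters of Mef2a, Mef2b, Mef2d and Baiap2l1 had 27, 11, 24 and 25 CG and did not hold the hexamer. Of all promoters, 16.3% held the hexamer, so its presence is common. The direct repeats AGGTCANAGGTCA, AGGTCANNAGGTCA and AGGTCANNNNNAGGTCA were in none of the 7 and in 13, 3 and 3 of the 32851 promoters, so their lack here is what most promoters show. A match is a run of letters, not a measured site. The sequences under the RARβ peaks were not searched, so neither a match nor its lack here bears on those peaks. Only these exact letters were searched, so hexamers with a changed base were left out and a lack of matches does not show a lack of receptor sites.

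The depth of the libraries sets what can be seen at these loci. The RARβ library held 2237580 tags (sequenced fragments counted once per position), which is 1.20 tags per kb averaged over the effective genome, and the smallest RARβ peak of the list had 7 tags. The H3K4me3 library held 47461843, or 25.4 per kb. Weaker RARβ sites were not detectable at this depth, and the limit can be higher where the local background is higher.

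At the Mef2c and Mir9-2 locus, all RARβ peaks lay in 1 broad H3K4me3 domain at the Mir9-2 end, and none lay in any other H3K4me3 peak of the window. The window held 13 H3K4me3 peaks and 5 RARβ peaks. The Mir9-2 domain, at chr13:83857826-83882185, was 24.36 kb wide and had 12894 tags (12672 to 13119). It was the eighth widest of the 35971 H3K4me3 peaks and only 2 peaks had more tags. RARβ overlapped 13.1% of all H3K4me3 peaks and 60.7% of the 473 that were at least 8 kb wide. The number of RARβ peaks in the Mir9-2 domain, 5, was reached or passed in 1.90% of those 473. Among the 16 H3K4me3 peaks of at least 20 kb, to which the domain belongs, 18.8% had as many.

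**Figure D1:**
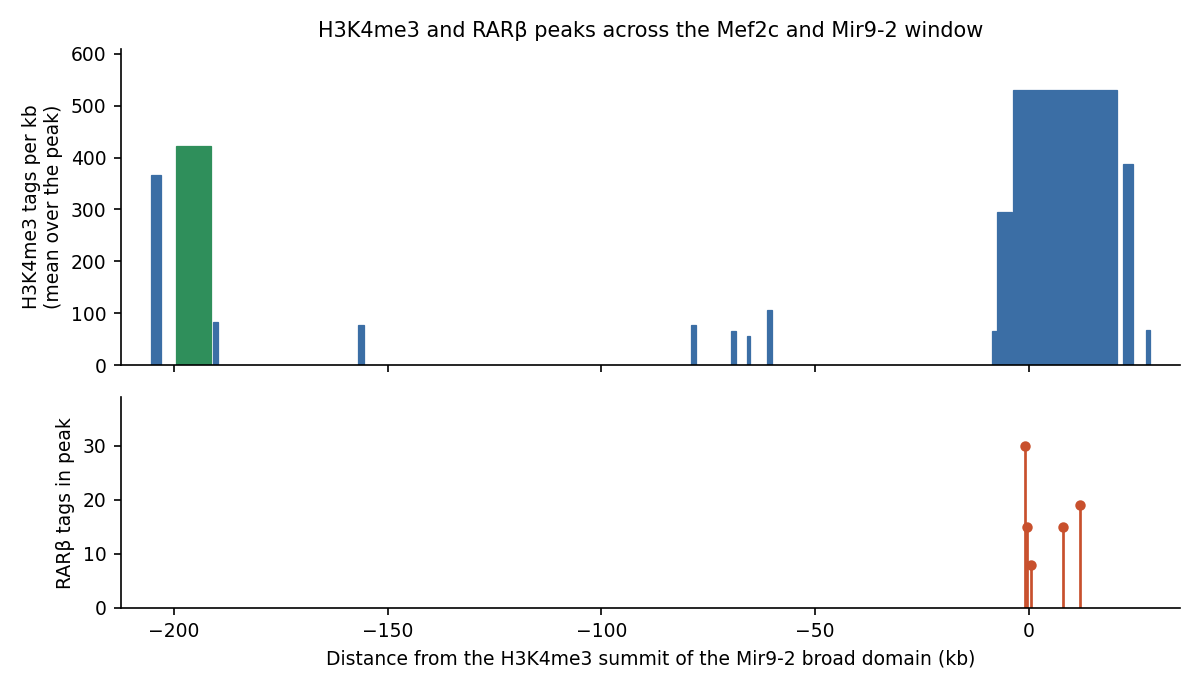
H3K4me3 peaks (top, boxes to scale in width, height is the mean number of tags per kb) and RARβ peaks (bottom, tags at each summit) across the Mef2c and Mir9-2 window, by distance from the H3K4me3 summit of the Mir9-2 broad domain in kb. The green box is the widest H3K4me3 peak on the Mef2c side, not placed on a Mef2c start, 198 kb from the Mir9-2 summit, and all 5 RARβ peaks stand inside the widest box.

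The 5 RARβ peaks fell into a tight group of 3 at the H3K4me3 summit and a looser pair in the body of the domain. The strongest, at chr13:83859022-83860944, had 30 tags (20.2 to 42.8) and a fold enrichment of 19.65. Fold enrichment is the tag pileup at the summit over the local background, as the authors' peak caller gave it. Its summit lay 938 bp below the H3K4me3 summit, where below means toward lower coordinates. The next peak, at chr13:83860946-83861597, was separated from it by 1 bp and had 15 tags and a fold of 15.33, with its summit 400 bp below. The third, at chr13:83861909-83862543, had 8 tags (3.45 to 15.8), a fold of 20.63 and a summit 576 bp above. These 3 summits thus stood on both sides of the H3K4me3 summit, each within 1 kb of it. With gaps of 1 and 311 bp between them, and 8 tags in the weakest, whether they are separate sites is not settled by these data. Every peak number, share, rank and median distance given for this domain counts them as 3 peaks.

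The other RARβ peaks of the Mir9-2 domain lay far from the mark's summit. At chr13:83869021-83870125, a peak of 15 tags and a fold of 13.04 had its summit 8020 bp above. At chr13:83872847-83873906, a peak of 19 tags (11.4 to 29.7) and a fold of 8.76 had its summit 11918 bp above. The fold of the latter was lower than that of all but 1.37% of the RARβ list, although its tag number was above that of 87.3% of the list. The median distance from the H3K4me3 summit over the 5 was 938 bp, and 3 of 5 lay within 1 kb. In H3K4me3 peaks of at least 20 kb, 24.0% of 50 RARβ summits lay that close, and in those of at least 8 kb 37.0% of 503 did.

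This group stood alone on its stretch of chromosome 13. The nearest RARβ peak below it was 1144 kb away and the nearest above it 551 kb away, while the 5 members spanned 14.9 kb. The median gap between neighbouring RARβ peaks over all chromosomes was 93.4 kb, and 93.7% of the 8054 gaps were smaller than the one below, 85.0% smaller than the one above. The peaks just outside the window were a RARβ peak of 7 tags at chr13:82714064-82714539 and one of 10 tags at chr13:84424879-84425477. The nearest H3K4me3 peaks outside it had 69 tags, 47.5 kb below, and 72 tags, 9.74 kb above.

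The widest H3K4me3 peak of the window outside the Mir9-2 domain, here called the widest Mef2c-side peak, was narrower than that domain and held no RARβ peak. It is used in place of the Mef2c promoter because no gene annotation of mm9 was used, and it was not placed on a Mef2c start. That peak, at chr13:83661918-83670257, was 8.34 kb wide and had 3523 tags (3408 to 3641). Its fold enrichment of 45.84 was 1.88 times the 24.39 of the Mir9-2 domain, and higher than that of 91.8% of the H3K4me3 peaks of at least 8 kb. The Mir9-2 domain was 2.92 times as wide and had 3.66 times as many tags. Spread over the whole peak, its density of 529 tags per kb (520 to 539) was 1.25 times the 422 tags per kb (409 to 437) of the Mef2c-side peak. The order of the peaks by strength thus depended on the measure. The Mef2c-side peak led by fold enrichment over the local background, and the Mir9-2 domain by tags per kb over its length. The fold enrichments have no interval. They rest on a control of 3703580 tags, scaled up 12.8 times, whose tags at each summit are not given. How far the fold ratio depends on few control tags was not tested.

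For RARβ the contrast was 5 called peaks with 87 tags at Mir9-2 against 0 called peaks in the widest Mef2c-side peak. Tags outside called peaks were not counted. At the genome mean of the library, 29.1 RARβ tags would fall in the Mir9-2 domain and 9.98 in the widest Mef2c-side peak. Per length, the 5 peaks came to 0.205 per kb (exact Poisson interval 0.0666 to 0.479), and the 0 peaks of the widest Mef2c-side peak allow up to 0.442 per kb. These intervals overlap; they take called peaks as independent and cover counting error only. A wide H3K4me3 peak without RARβ was also common: 39.3% of the 473 of at least 8 kb had none, and so did 38.5% of the 39 with a fold enrichment at least as high as that of this peak. The RARβ peak nearest to its summit was the strongest member of the Mir9-2 group, 197 kb above. Below, the nearest was 949 kb away.

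The remaining H3K4me3 peaks of the window also held no RARβ peak, 11 in number. At chr13:83656211-83658451, 3.47 kb below the widest Mef2c-side peak, lay a peak of 2241 bp with 823 tags. Between the widest Mef2c-side peak and the flank of the Mir9-2 domain there were 6 small peaks of 685 to 1335 bp, with 38 to 129 tags and fold enrichments of 3.52 to 10.54. Their FDR, the empirical false discovery rate given by the authors' peak caller, was 12.07% to 19.55%. It was lowest for the peak of 38 tags and highest for that of 129 tags, so it did not order them by strength. A peak of 1077 bp with 71 tags, a fold of 4.93 and an FDR of 15.23% lay near the lower flank of the Mir9-2 domain, and one of 984 bp with 67 tags, a fold of 6.91 and an FDR of 15.04% lay at the upper end of the window. Directly beside the Mir9-2 domain the mark was strong on both sides. A peak of 3631 bp with 1069 tags and a fold of 39.02 lay 144 bp below it, and one of 2265 bp with 877 tags and a fold of 31.08 lay 1399 bp above it. Of the 13 H3K4me3 peaks, 4 had an FDR of at most 5%, against 35.0% of the whole list: the widest Mef2c-side peak, the Mir9-2 domain and both strong flanking peaks.

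At Baiap2, RARβ peaks again lay inside a broad H3K4me3 domain, but away from its summit, and the RARβ peak with the highest fold enrichment lay outside it in a weakly marked region. The Baiap2 domain, at chr11:119796393-119824048, was 27.66 kb wide, the fourth widest of the list, and had 8998 tags (8813 to 9186), ranking eleventh. Its 325 tags per kb (319 to 332) were fewer than the 529 of the Mir9-2 domain, which was 1.63 times as dense. It held 4 RARβ peaks, a number reached or passed by 4.65% of the H3K4me3 peaks of at least 8 kb and by 50.0% of those of at least 20 kb.

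**Figure D2:**
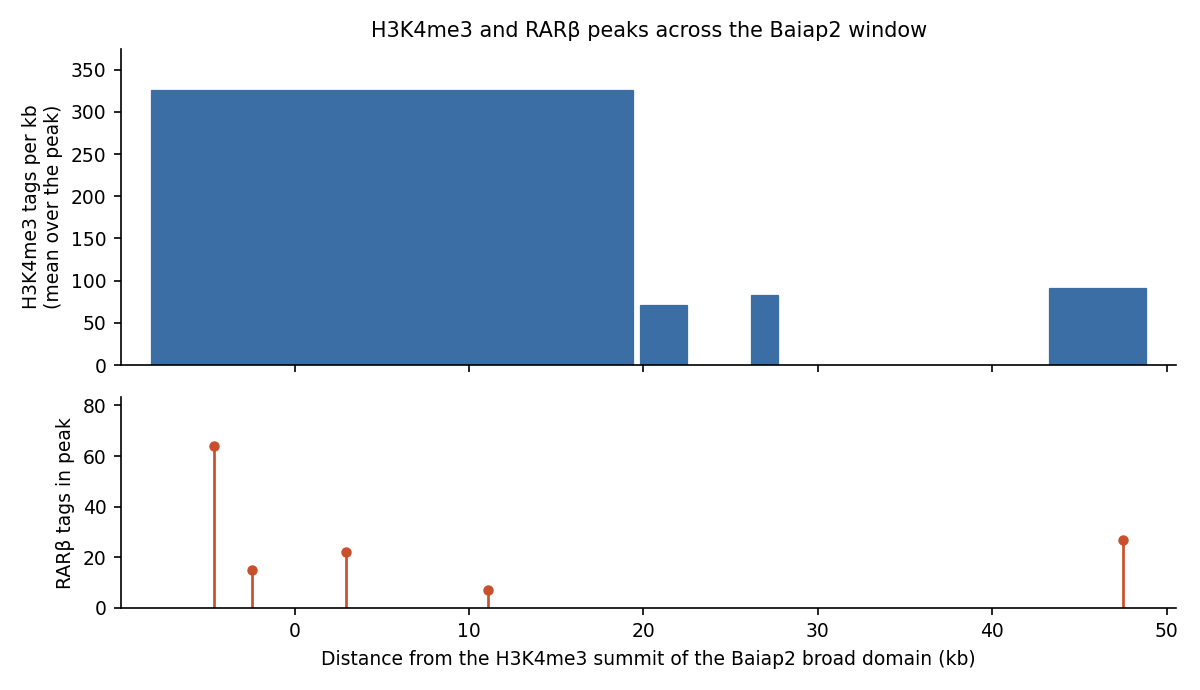
H3K4me3 peaks (top, boxes to scale in width, height is the mean number of tags per kb) and RARβ peaks (bottom, tags at each summit) across the Baiap2 window, by distance from the H3K4me3 summit of the Baiap2 broad domain in kb. The RARβ peak of 64 tags stands near the lower edge of the domain, and the peak of 27 tags stands in the rightmost, weakly marked box.

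The strongest RARβ peak of both loci by tags, at chr11:119798345-119800997, had 64 tags (49.3 to 81.7) in 2653 bp and a fold enrichment of 17.88. Only 17 of the 8075 RARβ peaks had more tags. Its summit lay 4616 bp below the H3K4me3 summit. The second, at chr11:119801351-119802344, followed after 353 bp and had 15 tags, a fold of 13.41 and a summit 2466 bp below. Above the H3K4me3 summit, the peak at chr11:119807267-119808470 had 22 tags and a fold of 8.62 at 2958 bp, and the peak at chr11:119815527-119816075 had 7 tags (2.81 to 14.4) and a fold of 19.35 at 11113 bp. The first of the 4 thus held 59.3% of their 108 tags. The median distance from the H3K4me3 summit was 3787 bp and 0 of 4 lay within 1 kb, while over all RARβ summits in H3K4me3 peaks of at least 20 kb the median was 3839 bp. In the Mir9-2 domain that median was 938 bp. With 5 and 4 summits this difference is a description.

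**Figure D3:**
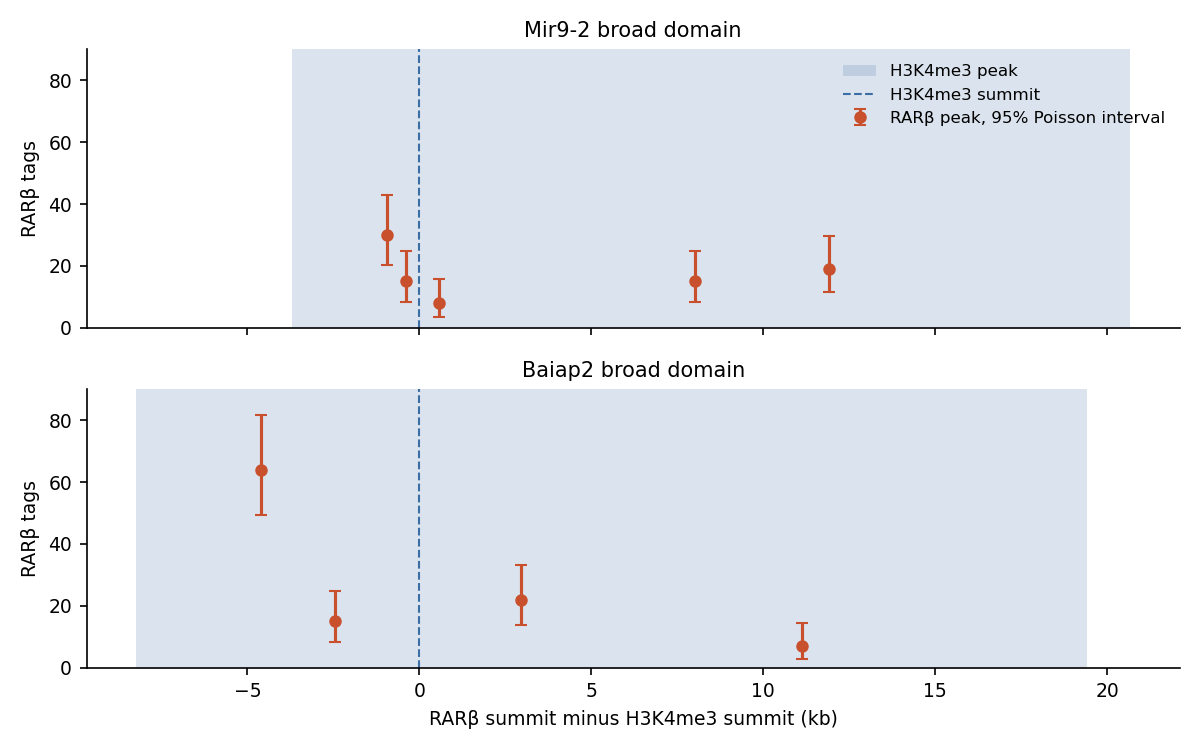
RARβ tags of each peak, with exact Poisson 95% intervals, against the distance of its summit from the H3K4me3 summit in kb, for the Mir9-2 broad domain (top) and the Baiap2 broad domain (bottom). Shading spans the H3K4me3 peak and the dashed line is its summit. At Mir9-2, 3 of 5 RARβ summits lie within 1 kb of the line, and at Baiap2 none of 4 does.

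Outside the Baiap2 domain, the peak at chr11:119851725-119852761 had 27 tags (17.8 to 39.3) and a fold enrichment of 38.31. This fold was higher than that of 91.7% of the RARβ list and of every other member. The peak lay in an H3K4me3 peak of 5609 bp, chr11:119847858-119853466, with 512 tags, 91.3 tags per kb, a fold of 6.54 and an FDR of 19.86%. Its summit was 378 bp below that of the H3K4me3 peak. The H3K4me3 density there was less than that of the Baiap2 domain, 91.3 against 325 tags per kb, while the RARβ density within the peak, 26.0 tags per kb, was the highest of the 10 members. The other H3K4me3 peaks of the window, of 2704 bp with 192 tags and of 1594 bp with 132 tags, held no RARβ peak. Just outside the window lay an H3K4me3 peak of 8342 bp with 1311 tags, 3.02 kb above it, and a RARβ peak of 12 tags, 19.7 kb below it.

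Over both loci, the 10 RARβ peaks had 7 to 64 tags, with a median of 17 against 10 for the list, and fold enrichments of 8.62 to 38.31, with a median of 16.6 against 19.35. All 10 shared at least 1 bp with an H3K4me3 peak, against 64.9% of the list. The windows were chosen for wide H3K4me3 peaks and the RARβ peaks in them, so this share is a description only. Tags per kb within the RARβ peaks were 10.5 to 21.8 times the mean of the library over the genome. Their FDR was 0.06% to 0.72%. The highest was that of the peak of 64 tags, so a higher FDR did not mark a weaker peak here. Inside the broad domains the fold enrichment was mostly low for the number of tags, as it was in wide H3K4me3 peaks in general. Of the 9 peaks there, 7 had a fold below the median of RARβ peaks with tag numbers within 20% of their own, against 46.2% of all RARβ peaks and 71.0% of those in H3K4me3 peaks of at least 8 kb. The peak of 64 tags showed this most in size, at 17.88 against a median of 65.77 for 27 peaks with like tag numbers. It was 2653 bp wide against a median of 646 bp for the list, and the comparison was not matched for width. The members of 8 and 7 tags had folds of 20.63 and 19.35, against medians of 19.35 and 19.16. These differences are small, since 1 tag over the genome background is a fold of 3.87. The smallest RARβ peak of the list also had 7 tags. The peak outside the broad domains had a fold of 38.31 against a median of 32.84.

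**Figure D4:**
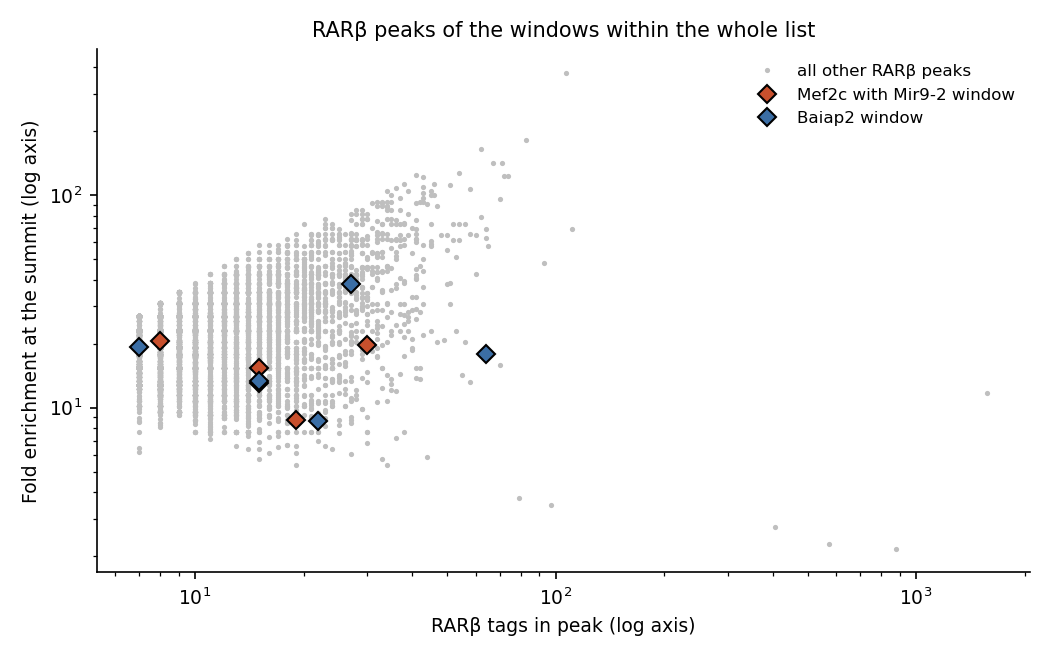
Fold enrichment at the summit against tag number for all 8075 RARβ peaks (both axes log), with the 5 peaks of the Mef2c and Mir9-2 window in orange and the 5 of the Baiap2 window in blue. Members with 15 or more tags inside the broad domains lie in the lower part of the cloud, and a pair of them at 15 tags with folds of 13.04 and 13.41 overlaps in the plot; the blue point at 27 tags and a fold of 38.31 lies higher.

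Between the broad domains, the intervals of the RARβ tag sums overlapped while the density of the mark differed. Summed over its peaks, RARβ had 87 tags (69.7 to 107) in the Mir9-2 domain and 108 (88.6 to 130) in the Baiap2 domain. The RARβ peaks covered 5375 bp, or 22.1% of the Mir9-2 domain, and 5400 bp, or 19.5% of the Baiap2 domain. For every 100 H3K4me3 tags there were 0.675 RARβ tags in called peaks at Mir9-2 and 1.20 at Baiap2. This order rests on the Baiap2 peak of 64 tags, without which Baiap2 had 44 RARβ tags, or 0.489 per 100. Without the strongest peak of each domain the values were 0.442 at Mir9-2 and 0.489 at Baiap2. By RARβ summits per kb, the Mir9-2 domain ranked 74th and the Baiap2 domain 116th of the 473 H3K4me3 peaks of at least 8 kb, and first and sixth of the 16 of at least 20 kb. The Mir9-2 ranks count the peaks grouped at its H3K4me3 summit separately, and would be lower with them joined.

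**Figure D5:**
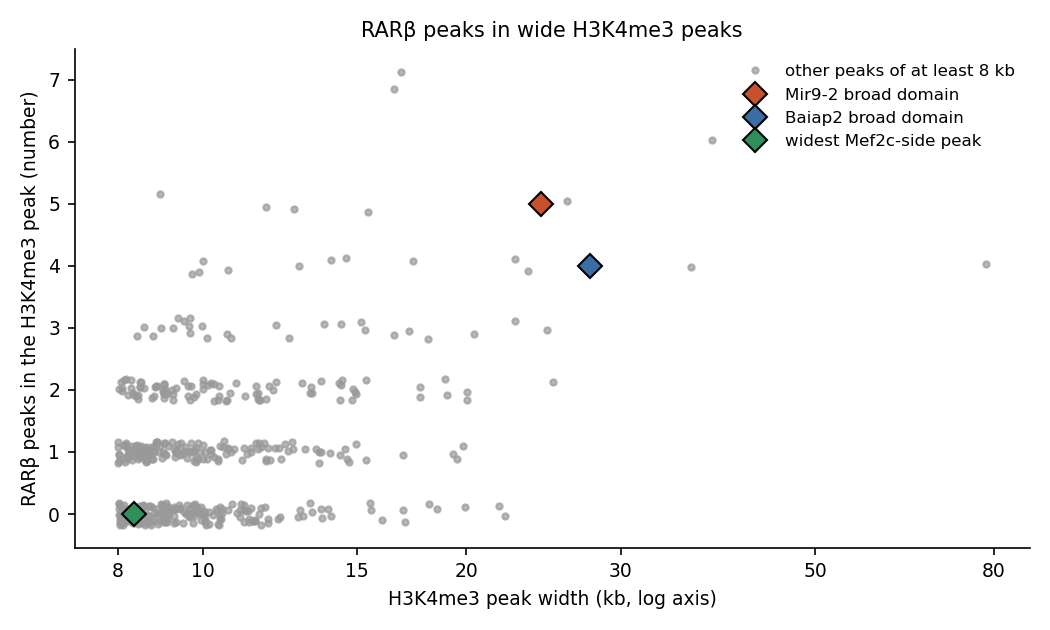
Number of RARβ peaks in each of the 473 H3K4me3 peaks of at least 8 kb against peak width in kb (log axis), with small vertical scatter added to the grey points. The Mir9-2 and Baiap2 domains have 5 and 4 RARβ peaks, and the widest Mef2c-side peak is among the 186 with none.

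In each of the 3 wide peaks the H3K4me3 summit lay toward the lower-coordinate edge. It stood at 15.2% of the length in the Mir9-2 domain, 15.3% in the widest Mef2c-side peak and 29.8% in the Baiap2 domain, counted from the lower edge. The mark thus reached 20.7, 7.06 and 19.4 kb above its summit and 3.70, 1.28 and 8.23 kb below it. Mef2c, C130071C03Rik and Baiap2 are all on the forward strand in the RefSeq table. No gene start was placed within these peaks, so a link of the longer arm to the direction of transcription was not tested. Of the 473 H3K4me3 peaks of at least 8 kb, 54.1% had the summit nearer to the lower-coordinate edge. The RARβ peaks of the Mir9-2 and Baiap2 domains were on both arms, 2 below the summit in each, and 3 and 2 above.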

How the data were processed

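ChIP-seq libraries of caudate putamen, 1 per antibody, were read as single ends per the labels' protocols. The submitters' processing notes name CASAVA 1.8.2 and Bowtie, with mm9 as the genome build. Per the file headers, MACS 1.4.2 called the peaks of each library separately against 1 shared control, at a p cutoff of 1e-05 and with 1 tag kept per position. Which antibody made this control is not stated in the headers, and every fold enrichment and FDR depends on it. Redundant tags were 55% of the RARβ library. The H3K4me3 library had 12.8 times the control's tags, to which the control was scaled. The authors deposited tag counts per peak without normalization, fold enrichment (a ratio of pileup to local background), an empirical FDR in percent, and a score equal to -10 times log10 of the p-value, whose column name was lost.

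Summits were placed at start plus offset minus 1. Overlaps needed 1 shared bp. Intervals are exact Poisson. Every peak in the windows is named or summarised, which was the rule. Overlap code was tested on simulated peaks. The windows, members and lists were chosen with earlier results of these data known, and no test was run. RefSeq tables matched 10 of 11 genes for a promoter or microRNA. Calculations used Python 3.11.15, numpy 2.4.6, pandas 2.3.3, scipy 1.17.1 and matplotlib 3.10.9.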

Additional observations from a re-analysis of the deposited data

How the results depend on the processing

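Of 37 alternatives, 29 were planned and 8 were added after seeing the data. Of 10 alternatives for the number of RARβ peaks in the Mir9-2 and Baiap2 domains, 8 gave a number within 1.5 times the main one. Those on shared length, summit position and RARβ FDR could not change it. These RARβ peaks lay wholly inside the domains, with an FDR of at most 0.72%. With at least 10 RARβ tags, the Mir9-2 domain kept 4 peaks and the Baiap2 domain 3. Stricter settings could not change the 0 peaks elsewhere in the Mef2c window. With a RARβ score of at least 100, the Mir9-2 and Baiap2 domains kept 1 peak each. With an H3K4me3 FDR of at most 5%, the Mef2c window had 4 H3K4me3 peaks in place of 13 and the Baiap2 window 1 in place of 4. Joining H3K4me3 peaks over gaps of at most 1 kb widened the Mir9-2 domain to 29.2 kb, the Baiap2 domain to 30.7 kb and the widest Mef2c-side peak to 10.1 kb. Measured from the centre of the H3K4me3 peak, the median distance of RARβ summits was 7906.5 bp at Mir9-2 and 6789.5 bp at Baiap2, since the summits of the mark lie off centre. The ratio of the Mir9-2 domain to the widest Mef2c-side peak in H3K4me3 was 1.25 by tags per kb. By fold enrichment, which has no interval, it turned to 0.532. With joined peaks it was 1.33 by tags per kb. The ratio of Baiap2 to Mir9-2 in RARβ tags per 100 H3K4me3 tags was 1.78, turned to 0.725 without the strongest RARβ peak at Baiap2, and was 1.11 without the strongest of each domain. Among H3K4me3 peaks of at least 20 kb, 0% had more RARβ summits per kb than the Mir9-2 domain and 31.2% more than the Baiap2 domain, against 15.4% and 24.3% of those of at least 8 kb. No alternative joined neighbouring RARβ peaks, so the Mir9-2 values take its close peaks as separate. The ratio of RARβ tags per kb to the widest Mef2c-side peak and the RARβ offsets there have no value, because no RARβ peak lies in it. No paired analysis was possible because each antibody had 1 library. No RARβ peak of the list had fewer than 7 tags, which is not the limit at every place. In the broad domains a peak of 15 tags scored 66.5 and one of 22 tags 72.29, where the cutoff is a score of 50. Sites of more than 7 tags may thus be missed there.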
